A study of Mus musculus and Homo sapiens with 40 samples.

Results

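The genes described here are the 5 C/EBP transcription factor genes Cebpa, Cebpb, Cebpd, Cebpe and Cebpg and the 2 Tribbles genes Trib1 and Trib2, 7 of 21581 annotated mouse protein-coding genes. They were chosen by name, and a locus was the gene with 50 kb on both sides. Peaks of 10 deposited ChIP-seq lists were assigned to a locus by their summit, which gave 122, 108, 122 and 128 H3K27ac peaks (p42 untreated, p42 with LPS, p30 untreated, p30 with LPS), 171 and 185 H3K4me1 peaks, 31 and 17 anti-CEBPA peaks and 27 and 29 anti-ER peaks (p42, then p30). The lists held 23248 to 168035 peaks each.

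The cells were HPC-7, a mouse hematopoietic progenitor line, transduced with a retrovirus carrying GFP and either CEBPA p42 or CEBPA p30 fused to the ligand-binding part of the estrogen receptor (ERT2). GFP-positive cells were sorted, and the methods of the study have the fusion activated with hydroxytamoxifen the day before an experiment, a step that the sample labels do not name. The fusion was therefore added to cells that keep the native gene, whose protein the paper reports at very low levels. The level of the fusion is set by the vector, and line and isoform cannot be told apart. H3K27ac was profiled in 3 samples per group, without treatment and after 100 ng/mL LPS for 2 h, and H3K4me1 in 2 untreated samples per line. Each of these groups was pooled before peaks were called, and anti-CEBPA and anti-ER were profiled in 1 untreated library per line. There was therefore no replicate value behind any peak, and differences between lists below are descriptions without a test. The peak lists do not give the depth of the libraries. In all 4 H3K27ac lists, 10 of 10 progenitor genes such as Kit, Gata2, Runx1 and Myb carried a promoter peak, and 0 of 7 genes of hepatocytes, muscle, lymphocytes, beta cells and neurons did.

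C/EBP proteins are basic leucine zipper factors that bind DNA as dimers. C/EBPα starts the granulocyte program, and its short isoform p30 arises from a start codon further along the same mRNA and lacks the N-terminal activation domain of p42. Tribbles pseudokinases bring the ubiquitin ligase COP1 to p42, which is then degraded, whereas p30 escapes this control. H3K27ac marks active promoters and enhancers and H3K4me1 mainly enhancers. The anti-CEBPA and anti-ER antibodies both reach the fusion protein. The anti-ER antibody does not recognize native C/EBPα.

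Positions are given in mm39 (GRCm39). Cebpa lies at chr7:34818718-34821353 on the plus strand and Cebpg at chr7:34745847-34756011 on the minus strand. Their start sites were 62707 bp apart, so the loci shared 37294 bp. The other genes were Cebpb at chr2:167530835-167532338 (plus), Cebpd at chr16:15705150-15708895 (plus), Cebpe at chr14:54947817-54949631 (minus), Trib1 at chr15:59520147-59528948 (plus) and Trib2 at chr12:15841714-15866923 (minus). A peak in a locus need not act on the gene that names it, since the Cebpb, Cebpd, Cebpe, Cebpg and Trib1 loci reach into Peds1, Spidr and Mzt2, Acin1 and Slc7a8, Pepd and Nsmce2, respectively.

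The sequences under several of the factor sites that carry the results are shown first. Each is the 200 bases around the summit on the plus strand of mm39, or 30 bases where the site lies in a UTR, and capitals mark matches to the C/EBP consensus TTGCNNAA on either strand.
Cebpe, 5441 bp downstream of the start site, chr14:54944090-54944289: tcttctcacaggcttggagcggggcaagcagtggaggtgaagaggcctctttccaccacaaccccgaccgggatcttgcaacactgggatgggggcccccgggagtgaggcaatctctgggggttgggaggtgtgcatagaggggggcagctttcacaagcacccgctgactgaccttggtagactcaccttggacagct
Cebpe, 6174 bp downstream, chr14:54943357-54943556: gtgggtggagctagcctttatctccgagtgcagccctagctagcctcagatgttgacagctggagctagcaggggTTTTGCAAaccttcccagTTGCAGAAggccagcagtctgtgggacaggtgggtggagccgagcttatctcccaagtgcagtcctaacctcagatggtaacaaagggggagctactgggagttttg
Cebpb, 21842 bp downstream, chr2:167552577-167552776: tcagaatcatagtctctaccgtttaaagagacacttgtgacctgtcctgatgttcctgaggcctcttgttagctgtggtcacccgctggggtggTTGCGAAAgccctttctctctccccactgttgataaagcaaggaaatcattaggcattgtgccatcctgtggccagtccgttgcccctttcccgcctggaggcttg
Cebpb, 39416 bp upstream, in a Peds1 intron, chr2:167491319-167491518: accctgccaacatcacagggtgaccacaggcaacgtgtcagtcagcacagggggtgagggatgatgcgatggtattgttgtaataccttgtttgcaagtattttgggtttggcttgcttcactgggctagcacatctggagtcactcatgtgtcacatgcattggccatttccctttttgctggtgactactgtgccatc
Cebpg, 700 bp upstream, chr7:34756611-34756810: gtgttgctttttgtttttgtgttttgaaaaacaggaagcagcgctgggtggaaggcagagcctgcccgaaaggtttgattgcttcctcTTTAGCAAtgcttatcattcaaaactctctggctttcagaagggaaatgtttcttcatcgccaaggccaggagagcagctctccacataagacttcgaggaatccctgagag
Cebpa, 8052 bp downstream, chr7:34826670-34826869: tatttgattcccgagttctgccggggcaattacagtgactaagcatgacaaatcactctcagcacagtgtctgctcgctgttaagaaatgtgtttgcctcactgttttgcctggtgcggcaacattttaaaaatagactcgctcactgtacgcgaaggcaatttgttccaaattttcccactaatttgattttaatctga
Cebpa, 35232 bp downstream, chr7:34853850-34854049: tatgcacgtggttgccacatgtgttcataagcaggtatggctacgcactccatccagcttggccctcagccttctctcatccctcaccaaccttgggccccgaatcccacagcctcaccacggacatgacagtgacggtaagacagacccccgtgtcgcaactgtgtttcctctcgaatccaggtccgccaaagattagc
Trib1, 237 bp downstream, 30 bases in the UTR, chr15:59520367-59520396: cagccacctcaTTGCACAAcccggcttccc
Cebpe, 42523 bp upstream, 30 bases in Slc7a8, chr14:54992134-54992163: agcggccgaggTTGCACAAgcaagcccaag
The sites at Cebpe 6174 bp, Cebpb 21842 bp, Cebpg 700 bp upstream, Trib1 237 bp and the site in Slc7a8 held the consensus close to the summit. The Cebpe site at 5441 bp, the Cebpb site in Peds1 and both Cebpa sites shown held none in 200 bp, although the first of these had the highest fold enrichment of any site in the loci.

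**Figure D1:**
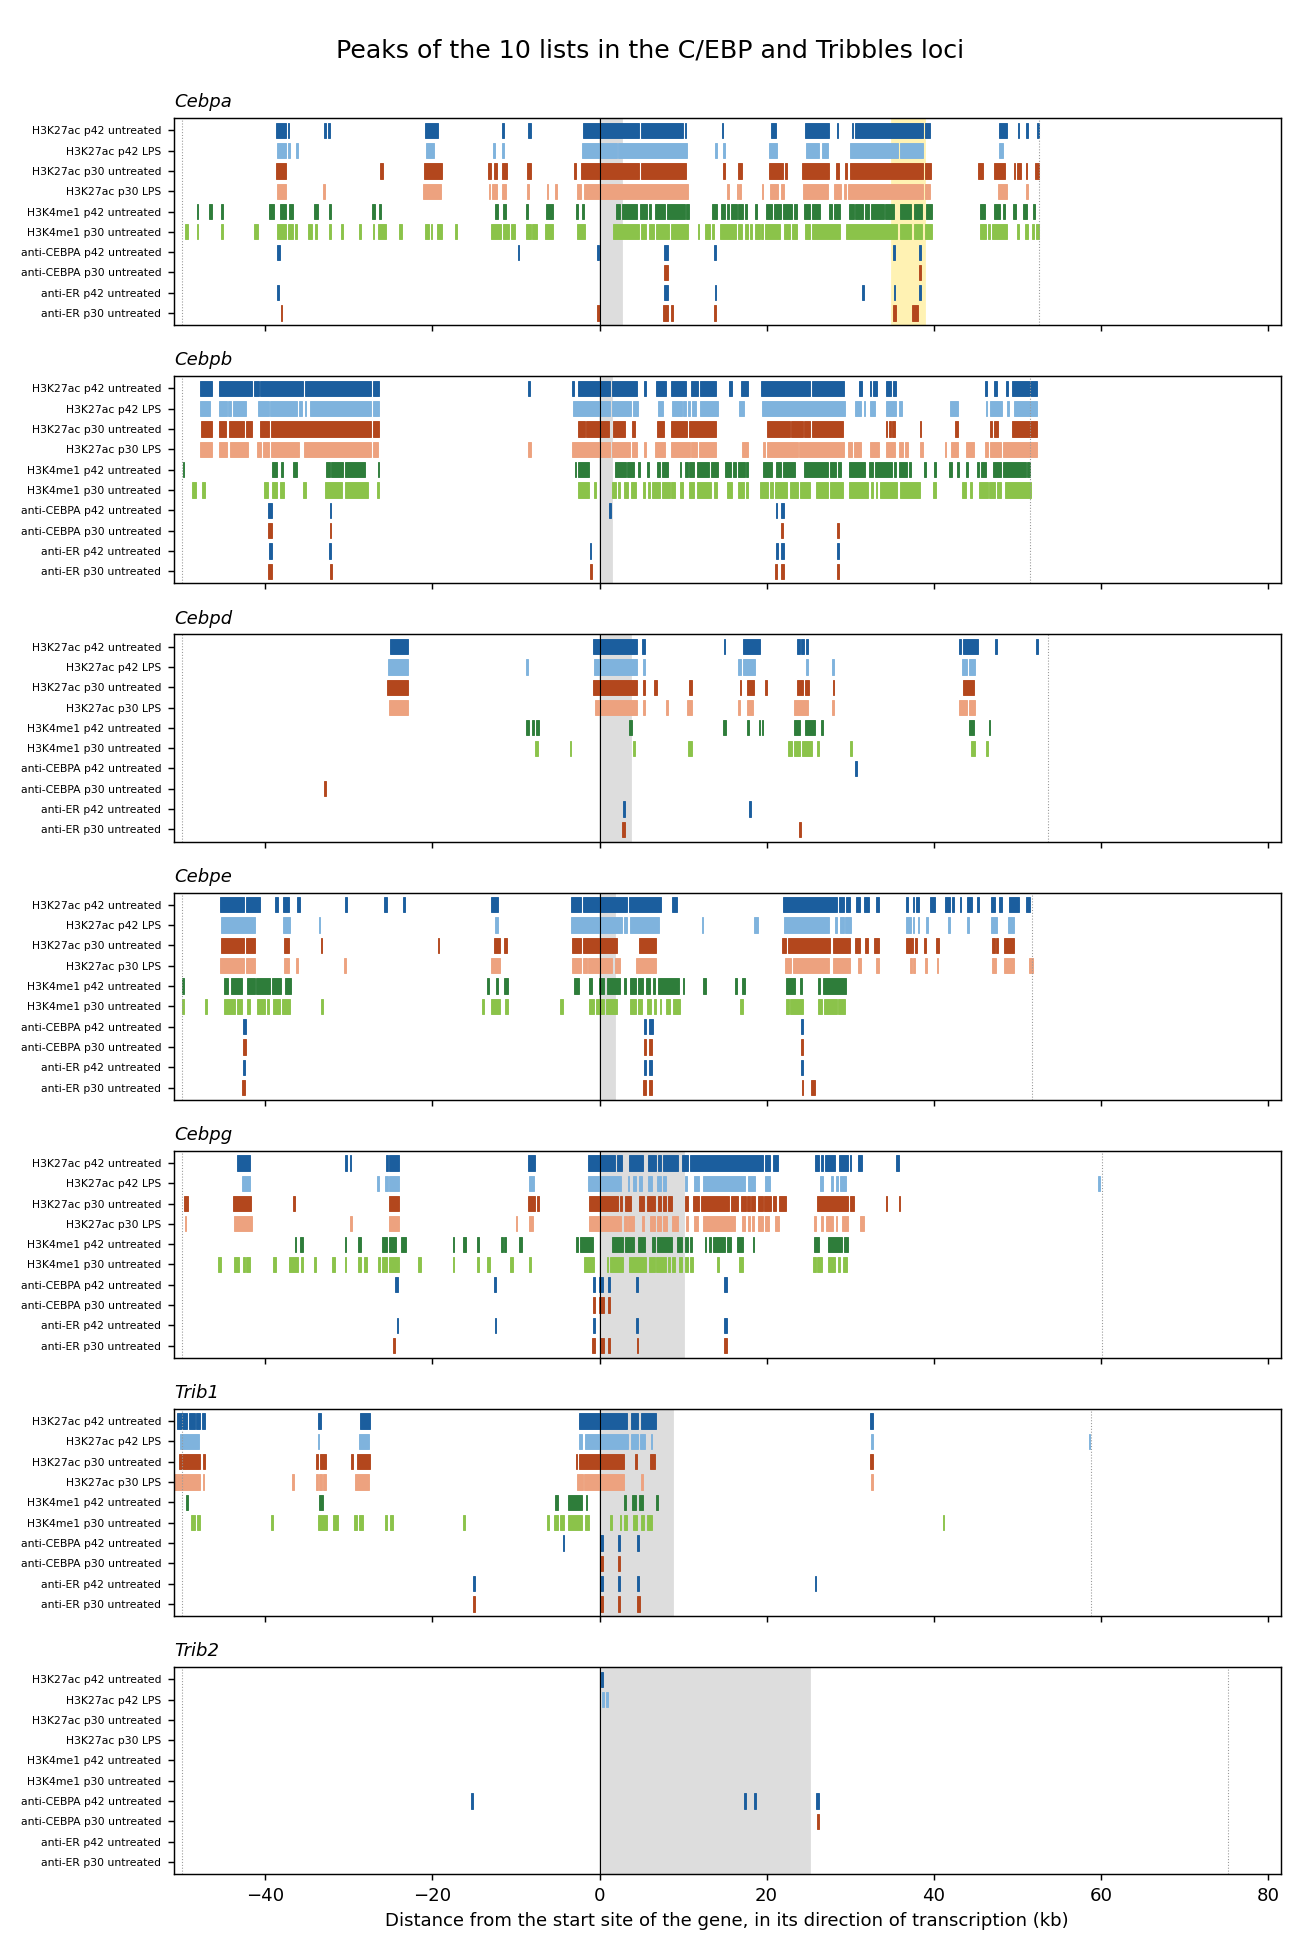
Each panel is a locus, with distance from the start site of the gene in kb along the direction of transcription on the x axis and 1 row per peak list. Bars are peaks at their full width, grey is the gene, the yellow band in the Cebpa panel is 35 to 39 kb downstream, and dotted lines are the ends of the locus. The loci of Cebpa, Cebpb, Cebpe and Cebpg are densely marked, and that of Trib2 is nearly empty.

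The members fell into 3 levels of histone marking. In untreated p42 cells, H3K27ac peaks covered 48.3% of the Cebpb locus, 32.8% of Cebpe, 29.6% of Cebpa and 24.8% of Cebpg. Coverage was 12.8% for Cebpd, 11.2% for Trib1 and 0.247% for Trib2. The median over all protein-coding loci was 6.69%, so 6 of the 7 loci were above it and Trib2 was below. As much H3K27ac as at Cebpb was found at 1.56% of all loci.

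The same grouping was seen in untreated p30 cells. H3K27ac covered 41.6% of Cebpb, 36.6% of Cebpa, 25.05% of Cebpe and 23.8% of Cebpg, then 12.3% of Cebpd and 10.9% of Trib1, and the p30 lists held no H3K27ac peak in the Trib2 locus with or without LPS. The median over all loci was 6.88%. The lines differed most at Cebpa, where coverage was higher in p30, and at Cebpe and Cebpb, where it was higher in p42.

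H3K4me1 gave a similar picture with a wider gap at Cebpa. It covered 35.1% of the Cebpb locus, 31.1% of Cebpa, 20.1% of Cebpe and 17.2% of Cebpg in p42, against 39.6%, 45.0%, 18.2% and 18.1% in p30. Coverage of Cebpd was 4.66% and 4.56%, and that of Trib1 was 3.98% in p42 and 9.24% in p30. No H3K4me1 peak lay in the Trib2 locus in either line. The medians over all loci were 2.39% in p42 and 3.37% in p30, and the p30 list was also the longer, with 168035 against 134658 peaks.

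**Figure D2:**
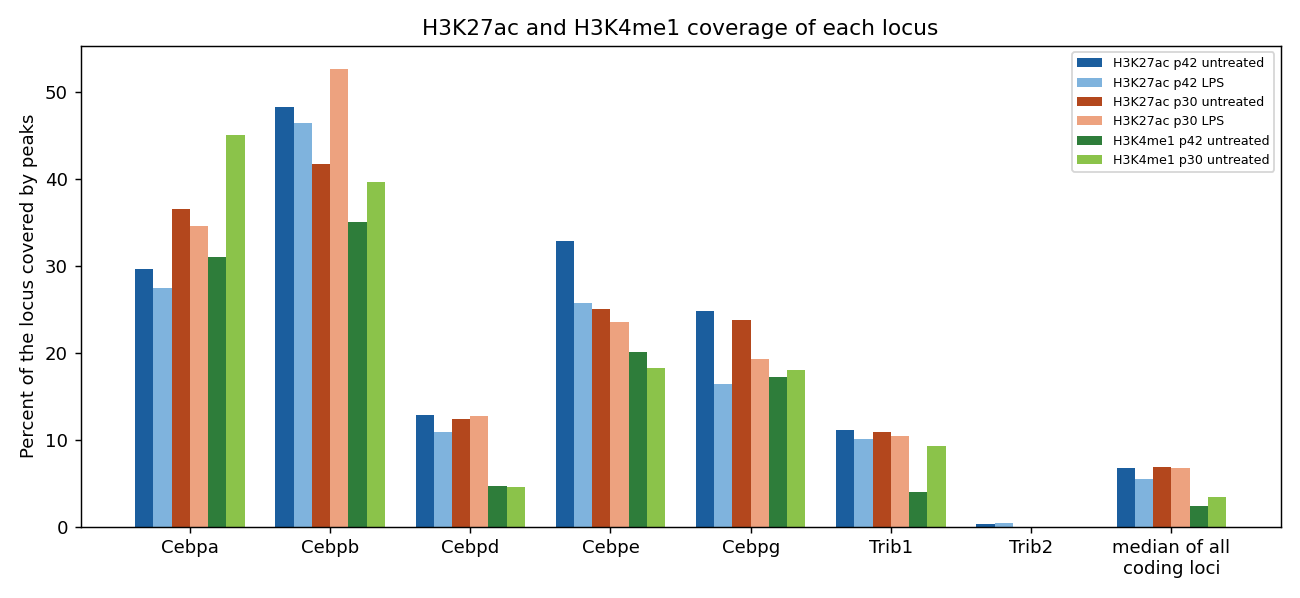
Bars give the percent of each locus covered by merged peaks (y axis) in the 4 H3K27ac and 2 H3K4me1 lists, with the median over all protein-coding loci at the right. Cebpb is highest in H3K27ac in every list, and Trib2 is at 0.377% or below.

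Promoters, 1000 bp upstream to 100 bp downstream of an annotated start site, were acetylated at 7 of 7 members in untreated p42 and at 6 of 7 in the other 3 H3K27ac lists. Of all protein-coding genes, 51.5% had such a peak in untreated p42, 51% in p42 with LPS, 51.1% in untreated p30 and 52.5% in p30 with LPS. The gene missing from the 3 lists was Trib2, and its peak in untreated p42 was 309 bp wide at 2.80-fold enrichment. Peaks are further described by rank, the position in their own list ordered by p-value, as a percent of the list. The Trib2 peak ranked at 75.1%.

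The Cebpg promoter carried the strongest acetylation of the 7. Cebpg encodes a small C/EBP protein without a strong activation domain that acts through its dimer partners. Its fold enrichment was 86.9 in untreated p42, 60.7 in p42 with LPS, 58.5 in untreated p30 and 66.5 in p30 with LPS, with ranks from 0.615% to 1.25%.

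The Trib1 promoter came next in each H3K27ac list, at 50.0-fold untreated and 39.9-fold with LPS in p30, and at 46.5-fold and 33.3-fold in p42. Cebpd, a gene known for fast induction in acute inflammation, was at 42.5-fold and 32.7-fold in p42 and at 26.2-fold and 39.5-fold in p30. At Cebpd and Cebpg the value was lower with LPS in p42 and higher in p30, which was also the tendency of the strong H3K27ac regions of the genome described below, whose median log2 ratio of LPS to untreated was -0.20 in p42 and 0.19 in p30. For Cebpe, which acts late in granulocyte maturation, values were 42.4, 27.9, 26.9 and 27.6 in the same order of lists. Cebpb, the C/EBP factor of emergency granulopoiesis, was at 36.9, 20.9, 23.5 and 23.4.

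Untreated p42 was the highest of the 4 lists at the Cebpb, Cebpd, Cebpe and Cebpg promoters. The Cebpa promoter was at 32.7-fold and 28.3-fold in p42 and 36.6-fold in untreated p30. In p30 with LPS its peak merged with the region downstream into 1 peak of 12431 bp at 37.2-fold, with the summit 5539 bp past the start site. The transgene carries CEBPA coding sequence, and its reads cannot be told apart in these lists from those of the intronless Cebpa gene wherever both are the same.

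H3K4me1 was found at 2 of 7 promoters in p42 (Cebpe and Cebpg) and at 3 of 7 in p30 (also Cebpb), against 22.3% and 27.9% of all protein-coding genes. The Cebpb peak was weak, at 2.56-fold and rank 91.6%. At the Cebpe and Cebpg promoters fold enrichment was 4.98 and 6.69 in p42, and 5.43 and 3.36 in p30. In windows of 2500 bp to both sides of a start site, 5 of 7 members had H3K4me1 in each line. The share of all genes in that wider window is not given here, so this count has no background.

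Anti-CEBPA peaks were found at 3 of 7 promoters in p42 (Cebpa, Cebpg and Trib1) and 2 of 7 in p30 (Cebpg and Trib1), against 9.04% and 8.53% of all protein-coding genes. Anti-ER peaks were found at 3 of 7 in p42 (Cebpb, Cebpg and Trib1) and 4 of 7 in p30 (these and Cebpa), against 7.93% and 12.8%. Cebpg and Trib1 were thus occupied in all 4 factor lists, and Cebpd, Cebpe and Trib2 had no promoter site in any of them. The Cebpb site had its summit outside the window, 1046 bp upstream in a Peds1 intron, and was counted because its edge reached in. It was weak, at 4.97-fold in p42 and 5.46-fold in p30, with ranks of 79.0% and 73.4%.

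At Trib1 the summits lay 231 to 242 bp past the start site, on the sequence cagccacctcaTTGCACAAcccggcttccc shown above. The anti-CEBPA lists gave 19.2-fold enrichment in p42 and 13.9-fold in p30. The anti-ER lists gave 30.5-fold in p42 and 41.9-fold in p30, at ranks of 4.46% and 2.42%. A further site 2324 bp downstream, in a Trib1 intron, was in all 4 lists at 9.27, 14.4, 14.6 and 16.4-fold (anti-CEBPA p42, anti-CEBPA p30, anti-ER p42, anti-ER p30, the order used from here on). Which isoform was higher at the start site depended on the antibody.

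At Cebpg the promoter site 700 bp upstream was at 7.31, 9.31, 11.6 and 27.6-fold. It ranked at 49.3%, 38.9%, 20.0% and 5.57%, and with either antibody p30 was the higher. The Cebpa promoter site, 189 bp upstream of the start site, was in the anti-CEBPA p42 list at 6.72-fold and the anti-ER p30 list at 11.3-fold, and in neither of the other lists, so the antibodies did not point to the same line.

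Merged across the 4 factor lists, the loci held 44 sites. Of these, 11 (25%) were in all 4 lists and 16 (36.4%) in a single list, against 20.9% and 42.6% of the 63759 merged sites in the genome. The sites in all 4 lists lay nearest to Cebpe (4), Cebpb (3), Trib1 (2), Cebpa (1) and Cebpg (1). Cebpd and Trib2 had none. By position, 21 of the 44 sites were intergenic, 13 intronic, 5 in promoters and 5 in UTRs.

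In the full lists, the overlap of p42 and p30 sites in the loci could not be told apart from that elsewhere, given wide intervals. With anti-CEBPA, 15 of 31 p42 sites (48.4%, Wilson 95% interval 32.0 to 65.2) overlapped a p30 site, against 55.3% of the whole list, and 15 of 17 p30 sites (88.2%, 65.7 to 96.7) a p42 site, against 82.5%. With anti-ER, 21 of 27 p42 sites (77.8%, 59.2 to 89.4) and 21 of 29 p30 sites (72.4%, 54.3 to 85.3) were shared, against 84.1% and 57.0%. These shares move with the lengths of the lists, and the intervals cover counting error only. Each whole-list share lay inside the interval of its loci. With the same number of best-ranked peaks from both lines, 58.8% of the anti-CEBPA p30 sites were shared, and the whole-list share under that setting is not given here.

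Sites in the loci lay inside H3K27ac more often than the sites of the whole lists. In p42, 21 of 31 anti-CEBPA summits (67.7%, 50.1 to 81.4) and 22 of 27 anti-ER summits (81.5%, 63.3 to 91.8) were inside an untreated H3K27ac peak of the line, against 18.9% and 43.9% of all summits. In p30, 13 of 17 (76.5%, 52.7 to 90.4) and 23 of 29 (79.3%, 61.6 to 90.2) were, against 21.7% and 38.3%. Each whole-list share lay below the interval of its loci, but the intervals treat the summits as independent. Several summits lay in the same H3K27ac peak, so the intervals are too narrow to serve as a test. The loci were also covered by H3K27ac above the median locus, as given above, and the part of that coverage in these shares was not tested.

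H3K4me1 peaks held fewer of the summits. In p42 they held 3 of 31 anti-CEBPA and 4 of 27 anti-ER summits (9.68% and 14.8%), close to the 10.0% and 20.1% of the whole lists. In p30 they held 6 of 17 and 11 of 29 (35.3% and 37.9%), against 15.0% and 26.5%. Of the 11 sites in all 4 factor lists, 11 lay in p42 H3K27ac and 9 in p30 H3K27ac, 0 in p42 H3K4me1 and 4 in p30 H3K4me1. Of the 13341 such sites in the genome, 38.4% and 34.6% lay in H3K27ac and 15.4% and 23.7% in H3K4me1 of p42 and p30. In the loci, the sites outside p30 H3K27ac were those in Slc7a8 and Peds1, judged at the anti-CEBPA p42 summit. Both lay close to the edge of a p30 peak, in merged H3K27ac regions that held peaks of both lines.

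**Figure D3:**
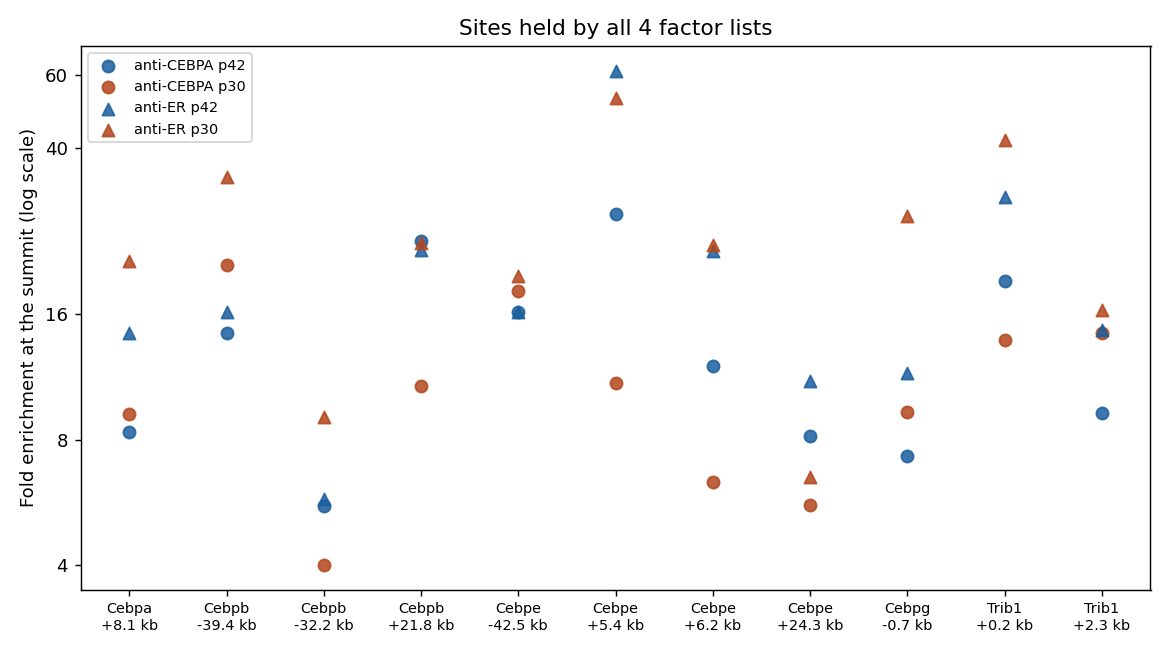
Points give the fold enrichment at the summit (log scale) of each of the 11 sites in all 4 factor lists, by antibody (circles anti-CEBPA, triangles anti-ER) and line (blue p42, red p30), with the nearest member and the distance from its start site in kb. The Cebpe site at 5.4 kb reaches 61.4-fold with anti-ER in p42, and anti-CEBPA values there differ between the lines.

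The Cebpe locus held the best-ranked factor site of the 7 genes in 3 of the 4 lists, and in anti-CEBPA p30 the Cebpb site in Peds1 was the best. The site 5441 bp downstream of the Cebpe start site, past the end of the gene, was at 27.9, 11.0, 61.4 and 52.8-fold, with ranks of 5.27%, 27.5%, 0.813% and 1.16%. A second site 6174 bp downstream was at 12.0, 6.32, 22.7 and 23.4-fold and carried a pair of C/EBP matches close together, as printed above. With anti-CEBPA both were higher in p42. With anti-ER the first was higher in p42 and the second in p30, each by a smaller factor. The third site, 42523 bp upstream in Slc7a8, was at 16.2, 18.2, 16.2 and 19.8-fold. The fourth, 24270 bp downstream at the Acin1 promoter, was at 8.16, 5.59, 11.0 and 6.51-fold and held the composite C/EBP and ATF4 sequence TGATGCAA in place of the C/EBP consensus.

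At Cebpb the best anti-CEBPA site differed between the lines. It lay 21842 bp downstream in p42, where the 4 values were 24.0, 10.8, 22.8 and 23.7-fold. In p30 it lay 39416 bp upstream, in a Peds1 intron, where they were 14.4, 21.0, 16.2 and 34.1-fold. The other site in all lists, 32175 bp upstream, was weak at 4.01 to 9.05-fold. Both antibodies gave the higher value in p30 at the Peds1 site. At 21842 bp, p42 was higher with anti-CEBPA and the lines were alike with anti-ER.

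The best-ranked Cebpg site in both p42 lists was 15094 bp downstream, in an intron of Pepd, whereas in both p30 lists it was the promoter site 700 bp upstream. The anti-CEBPA lists held it at 25.5-fold in p42 and not at all in p30, and the anti-ER lists held it at 24.0-fold in p42 and 12.0-fold in p30. Upstream of Cebpg, at 12478 bp and 24225 bp, lay the only 2 sites in the loci found with both antibodies in p42 and with neither in p30. They were weak, at 8.64 and 5.04-fold and at 4.80 and 4.15-fold (anti-CEBPA, then anti-ER), and the region of the second also held an anti-ER p30 site whose summit was 24619 bp upstream. No site had both antibodies in p30 and neither in p42.

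Cebpa had 1 site in all 4 lists, 8052 bp downstream, at 8.35, 9.23, 14.4 and 21.4-fold. With both antibodies p30 was the higher, and its best anti-CEBPA rank in p30 was 37.5%. The best-ranked anti-CEBPA p42 site of Cebpa was 13846 bp downstream, at 9.12-fold and rank 40.6%.

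Cebpd and Trib2 were the poorest in sites. Cebpd had a site in its own UTR, 2888 bp past the start site, with anti-ER alone (8.72-fold in p42, 14.6-fold in p30), and each of its 4 other sites was in a single list. Its best anti-CEBPA sites were 30740 bp downstream in p42, at 8.81-fold, and 32786 bp upstream in p30, at 6.05-fold. Trib2 had 4 sites in the anti-CEBPA p42 list, 1 of them also in anti-CEBPA p30, at 5.56 to 6.96-fold in p42. The anti-ER lists held no peak in the Trib2 locus, and none of its 4 sites lay in H3K27ac.

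The consensus TTGCNNAA occurred within 200 bp around the summit at 17 of 31 anti-CEBPA sites in p42 (54.8%, 37.8 to 70.8) and 9 of 17 in p30 (52.9%, 31.0 to 73.8). It occurred at 16 of 27 anti-ER sites in p42 (59.3%, 40.7 to 75.5) and 15 of 29 in p30 (51.7%, 34.4 to 68.6). The shares over the whole lists were 50.7%, 53.0%, 51.7% and 47.0%, inside these intervals, and windows of the same length 5000 bp to the left of all summits held it at 9.57%, 9.20%, 8.65% and 8.77%. The palindrome TTGCGCAA was found at 1 anti-ER p42 site, 25822 bp downstream of Trib1, and at no site of the other 3 lists, against 2.18%, 3.11%, 3.54% and 2.74% of the whole lists. The composite TGATGCAA was at 3 of 31, 1 of 17, 2 of 27 and 3 of 29 sites, against 10.1%, 10.6%, 6.25% and 6.53%. The AP-1 sequence TGANTCA was at 4 of 31, 4 of 17, 3 of 27 and 5 of 29 sites, against 7.29%, 7.34%, 8.92% and 8.80% of the whole lists. One of them was the Trib1 start-site peak.

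**Figure D4:**
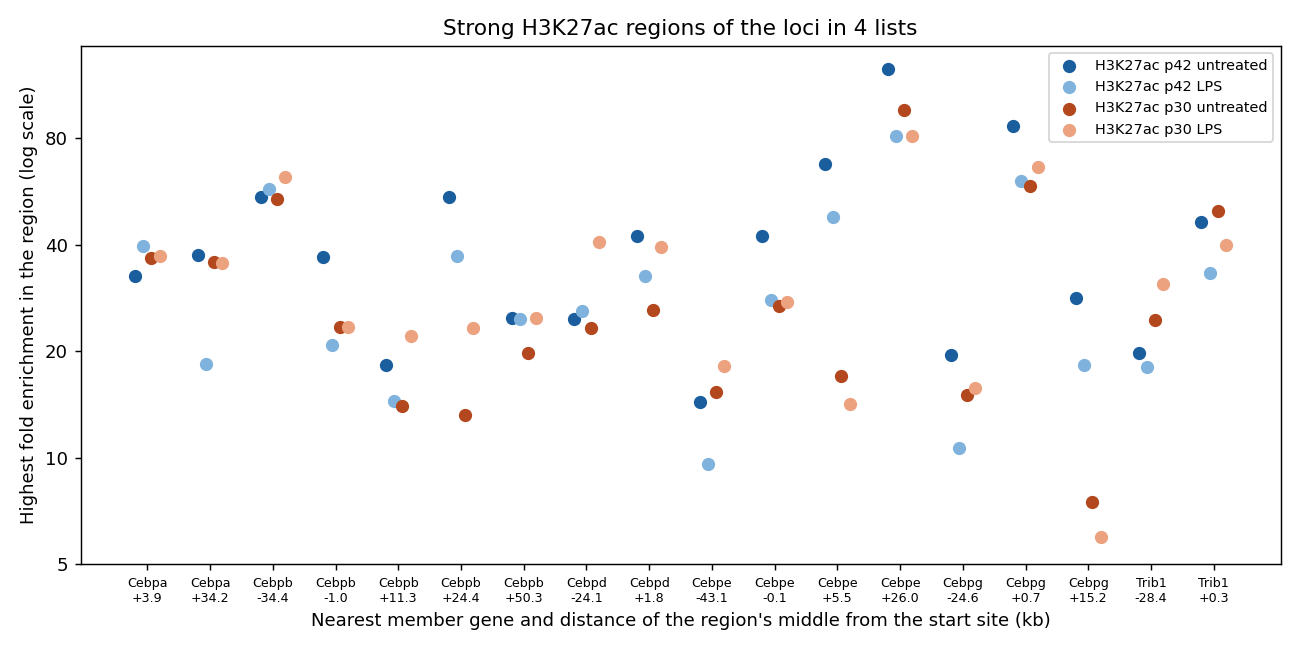
Points give the highest H3K27ac fold enrichment (log scale) in the 4 lists for each region of the loci that was in all 4 lists and in the best 10% of at least 1, placed by the nearest member and the distance of the region's middle from its start site in kb. In 3 regions, Cebpb at 24.4 kb, Cebpe at 5.5 kb and Cebpg at 15.2 kb, both p42 points lie above both p30 points by the widest gaps.

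The best-ranked anti-CEBPA p42 sites of Cebpb, Cebpe and Cebpg lay in the H3K27ac regions of the loci that differed most between the untreated lines. Of 15405 H3K27ac regions in the genome that were in all 4 lists and in the best 10% of at least 1, the median log2 ratio of p30 to p42 fold enrichment was -0.13 untreated and 0.29 with LPS. The comparison was chosen after the values had been seen. At Cebpe, the region with its middle 5454 bp downstream was at 67.9-fold in untreated p42 and 17.1-fold in p30, a log2 ratio of -1.99, and as low a ratio was found in 0.526% of these regions. With LPS it was at 48.1 and 14.2-fold (log2 ratio -1.76).

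The region in the Pepd intron downstream of Cebpg was at 28.4-fold in untreated p42 and 7.48-fold in p30 (log2 ratio -1.92). With LPS it was at 18.3 and 5.96-fold. At Cebpb the region 24392 bp downstream was at 54.5-fold in untreated p42 and 13.3-fold in p30 (log2 ratio -2.04), and at 37.3 and 23.3-fold with LPS (-0.68). With LPS the log2 ratios of the Cebpa region with its middle 34205 bp downstream (0.94), the Cebpe region in Slc7a8 (0.92) and the Trib1 region upstream (0.77) were larger in size than that of Cebpb. The ranks moved the same way as the folds, from 0.964% to 7.87% at Cebpe, from 2.07% to 9.80% at Cebpb and from 5.69% to 15.5% at Cebpg.

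The other strong regions differed less between the untreated lines. The strongest H3K27ac peak anywhere in the loci was the Acin1 promoter, 25682 bp downstream of Cebpe, at 125 and 96.5-fold untreated in p42 and p30, and 81.2 and 81.2-fold with LPS. The Cebpb region in Peds1, 32030 bp upstream at its summit, was at 54.8, 57.6, 54.0 and 62.2-fold (p42 untreated, p42 LPS, p30 untreated, p30 LPS), the least varied of the strong Cebpb regions in fold. The strongest distal regions of Trib1, 28037 bp upstream, and Cebpd, around the Mzt2 start site, were at 19.8, 18.1, 24.5 and 30.9-fold and at 24.8, 26.0, 23.4 and 40.6-fold.

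The region 35 to 39 kb downstream of Cebpa, known as the +37 kb enhancer and needed for Cebpa expression in myeloid progenitors, was marked in all 6 histone lists. Its H3K4me1 peak, with the summit 36043 bp downstream in p42 and 36047 bp in p30, was ranked 27 of 134658 and 24 of 168035 peaks, at 14.8-fold in both. No other peak of the loci, in any list, ranked as high in its own list. H3K27ac there was at 37.5-fold in untreated p42, 18.4-fold in p42 with LPS, 35.7-fold in untreated p30 and 35.4-fold in p30 with LPS. The peak was 8174, 2752, 8772 and 9000 bp wide in these lists. In p42 with LPS a further peak of 5823 bp at 11.1-fold ended 165 bp before it, and both together spanned 8740 bp, so the marked stretch was about as long in the 4 lists and the smaller width came from a split call. The fold enrichment was lowest in p42 with LPS, a log2 ratio to untreated of -1.02 against -0.01 in p30, and 0.98% of the strong regions had as low a ratio in p42, where their median was -0.20.

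Factor occupancy of this enhancer was modest, apart from anti-ER in p30. The site 35232 bp downstream was at 6.72-fold with anti-CEBPA in p42, 7.20-fold with anti-ER in p42 and 20.2-fold with anti-ER in p30, where it ranked at 10.7%. A site 38314 bp downstream was at 5.56, 4.92 and 3.38-fold in the lists other than anti-ER p30, ranking at 85.5%, 94.4% and 97.5%. Another, 37499 bp downstream, was in the anti-ER p30 list alone, at 4.37-fold. None of the sites held TTGCNNAA in 200 bp.

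The regions that entered or left the lists with LPS were weak. The strong regions above were chosen for presence in all 4 lists, so they could not be gained or lost. Merging the 4 H3K27ac lists gave 143 regions in the loci, 51 of them in all 4. In p42, 16 of the 112 regions present in either list were gained with LPS (14.3%, 8.99 to 22.0) and 33 were lost (29.5%, 21.8 to 38.5), against 12.5% and 33.2% of all regions. In p30, 24 of 115 were gained (20.9%, 14.4 to 29.2) and 21 lost (18.3%, 12.3 to 26.3), against 22.5% and 22.7%. These shares were near those of the whole genome. Of the 143 regions, 1 was gained in both lines (0.699%) and 5 were lost in both (3.50%), against 1.66% and 3.95% of all regions. Gained and lost regions were at up to 4.76-fold, with a best rank of 26.1% and median ranks between 75.2% and 82.7%. When presence needed a q-value under 1e-05 and absence no peak at all, 3 were gained and 10 lost in p42 and 8 gained and 4 lost in p30.

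**Figure D5:**
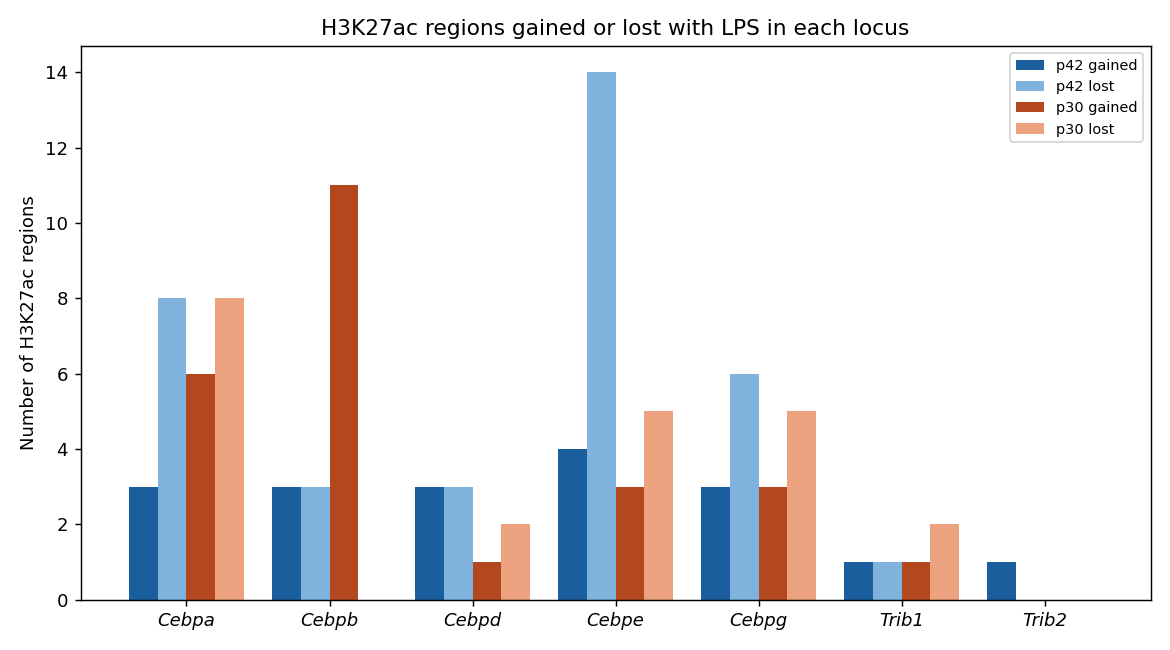
Bars give the number of H3K27ac regions gained or lost with LPS (y axis) in each locus and line, where gained means present with LPS and absent untreated. Cebpb in p30 has 11 gained and 0 lost, and Cebpe in p42 has 4 gained and 14 lost.

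In the Cebpb locus in p30, 11 of 25 regions were gained (44%, against 22.5% of all regions in that line) and 0 were lost (against 22.7%). In p42, 3 of 22 were gained and 3 lost (13.6% each, against 12.5% and 33.2%). H3K27ac coverage of the locus went from 41.6% to 52.6% in p30 and from 48.3% to 46.4% in p42. As large a rise was seen at 0.338% of all protein-coding loci in p30. Most of these loci had less coverage to begin with, at a median of 6.88%, and loci of like starting coverage were not compared. The best-ranked gained region in p30 was 32915 bp downstream, at 4.61-fold, and was already present in untreated p42. In p42 the best-ranked gained region was 42484 bp downstream, at 4.76-fold, and was present in untreated p30. Of the 11 regions gained in p30, 6 were listed in untreated p42.

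In the Cebpe locus in p42, 14 of 31 regions were lost and 4 gained (45.2% and 12.9%, against the 33.2% and 12.5% of all regions in that line), with coverage of 32.8% untreated and 25.7% with LPS. In p30 it had 5 lost and 3 gained of 21 (23.8% and 14.3%), against 22.7% and 22.5% of all regions in that line. Cebpa lost 8 and gained 3 of 21 in p42 (38.1% and 14.3%). In p30 it lost 8 and gained 6 of 30 (26.7% and 20%). At Cebpg 6 were lost and 3 gained of 22 in p42 (27.3% and 13.6%), against 5 and 3 of 23 in p30 (21.7% and 13.0%). These were partly the same regions as at Cebpa, since the loci overlap. Most of these shares were near those of all regions. Cebpg nevertheless had the largest loss of coverage among the members in both lines, from 24.8% to 16.4% in p42 and from 23.8% to 19.3% in p30. Its change was -8.38 percentage points in p42 and -4.47 in p30, and 95.9% of all loci had as high a change or higher in each line. A locus cannot lose more points than it has covered, and median untreated coverage over all loci was 6.69% in p42 and 6.88% in p30. Loci of like starting coverage were not compared. Cebpd and Trib1 changed by at most 3 regions in a direction, and Trib2 gained 1 region of 247 bp in p42. The best-ranked losses were 39824 bp downstream of Cebpe in an Acin1 intron in p42, at 4.19-fold, and 11287 bp upstream of Cebpe in Slc7a8 in p30, at 3.81-fold.

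A further 17 genes of the C/EBP and Tribbles axis were chosen for known links to it, with earlier results of these data known. Shares above those of all genes are therefore no independent evidence. Of these 17, 6 had a promoter site in all 4 factor lists, against 4.95% of all protein-coding genes. They were Ddit3, which encodes the C/EBP family member CHOP, Trib3, the third Tribbles gene, the receptor genes Csf3r and Il6ra, and the granule protein genes Mpo and Ltf. Il6ra was the highest, at 22.6, 34.6, 36.8 and 73.8-fold, and Ddit3 was at 24.6, 27.1, 18.0 and 36.0-fold. Trib3 was at 8.16, 13.0, 7.68 and 15.6-fold, and Csf3r was at 12.0, 16.3, 11.7 and 17.1-fold. With both antibodies p30 was higher at Il6ra, Ddit3, Trib3 and Csf3r. How often this held over all shared sites of the genome is not given here, which also limits the Cebpg, Cebpb and Cebpa sites above. The Ddit3 and Trib3 sites lay at annotated start sites inside the genes, 2088 and 5965 bp past the outermost ones in p42. Mpo was lower, between 5.76 and 9.12-fold. Ltf, a secondary granule gene, was at 10.1-fold with anti-CEBPA in both lines.

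Another 5 of the 17 had no promoter site in any factor list, against 84.2% of all protein-coding genes, namely Cop1, which encodes the ligase partner of Tribbles, Csf2ra, Klf5, Msi2 and Prtn3. Of these, Klf5 had no promoter peak in any of the 4 H3K27ac lists either. Cop1 was acetylated at 48.2-fold in untreated p42. In all, promoter sites were found at 6 of 17 and 7 of 17 of these genes with anti-CEBPA (p42, p30) and at 10 of 17 and 11 of 17 with anti-ER, against 9.04%, 8.53%, 7.93% and 12.8% of all protein-coding genes.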

How the data were processed

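Mouse HPC-7 progenitors expressing ERT2 fusions of CEBPA p42 or p30 were profiled by ChIP-seq in 20 samples with 18 inputs, and an ATF4 list of human KO-52 cells was not used. According to the study's methods and processing notes, the authors trimmed reads with Trim Galore (0.6.6), aligned them to mm39 with Bowtie2, excluded duplicates marked by Picard and called narrow peaks with MACS2 against input. H3K27ac (3 samples) and H3K4me1 (2 samples per the labels) were pooled before calling. The other lists came from 1 library each, and the anti-CEBPA lists possibly used other calling settings than the anti-ER lists. The deposited lists give fold enrichment over background at the summit, a ratio, and the −log10 of the p-value and of the q-value. No list passed a chromosome end of GRCm39.

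Peaks on chromosomes 1 to 19, X and Y were used, with GENCODE M39 genes, in Python 3.11.15 (numpy 2.4.6, pandas 2.3.3, scipy 1.17.1, pysam 0.24.0). Overlap meant 1 bp. Ranks followed the −log10 p-value within a list. H3K27ac regions were the union of the 4 lists. Shares carry 95% intervals by the Wilson method, which reflect counting error alone. Overlap, coverage and motif steps were tested on simulated data. The alternatives changed the q-value threshold, list lengths, flank, promoter window, summit distance, ranking and motif window. Members, gene lists and motifs were chosen with earlier results of these data known. Named were the members, the genes of the axis with promoter sites in all 4 factor lists or in none, the best anti-CEBPA site of each line per locus, sites in all 4 lists or with both antibodies in 1 line, the strongest promoter and distal H3K27ac peaks, and the best gained and lost regions. For each member, the 3 genes with the nearest coverage over the 10 lists (Euclidean distance) were also named, leaving out overlapping loci. The Cebpa promoter site, the sites with 3 or fewer lists at Cebpd, Trib2 and the +37 kb enhancer, and the line differences of strong regions were added after the values were seen.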

Additional observations from a re-analysis of the deposited data

Results flagged for a closer look

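H3K27ac coverage differed in direction between the lines after LPS at 2 loci. At Cebpb, LPS minus untreated was -1.84 percentage points in p42 and 11.0 in p30. At Cebpd it was -1.93 points in p42 and 0.384 in p30. Each value compares 1 pooled list with another, so whether the lines differ was not tested. Over all protein-coding loci the median difference was -0.66 points in p42 and 0 in p30, and the p42 list with LPS was the shortest of the 4, at 107141 peaks.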

How the results depend on the processing

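No paired analysis was possible because no result came from a test, the lists being pooled or from 1 library each. Leaving out a replicate could not be done for the same reason. With the same number of best-ranked peaks from both lines, 19 anti-CEBPA p42 sites were left in the loci, and 58.8% of the anti-CEBPA p30 sites were shared. With a 25 kb flank that share was 100% and the median H3K27ac coverage of the members in p42 with LPS was 27.2%. With peaks under a q-value of 1e-05, median H3K4me1 coverage in p30 was 11.5% and the LPS difference at Cebpd in p30 turned to -0.60 points. With presence needing that q-value and absence no peak, the p42 lists had 3 gained and 10 lost regions and the p30 lists 8 gained and 4 lost, which are 4.35%, 14.5%, 11.1% and 5.56% of those present, against 4.89%, 15.3%, 10.2% and 7.77% of all regions. With 2500 bp to both sides, 5 members had promoter H3K4me1 in each line, and the share of all genes in that window is not given here. Ranked by fold, the H3K4me1 peak of the +37 kb enhancer stood at 0.00223% of the p42 list and 0.00179% of the p30 list. Another 91 values of the comparisons stayed within 1.5 times the main count or inside its interval. The LPS difference at Cebpb was between -3.14 and -0.24 points in p42 and between 8.14 and 11.3 in p30 under these alternatives. The cause of each shift was not tested beyond the smaller lists that the alternatives make. Fold enrichment is relative to each library's own background, and differences of fold between lists may reflect yield as well as occupancy, which was not tested.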

Other observations

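The loci most like each member in percent covered over the 10 lists, by Euclidean distance and leaving out overlapping loci, were those of H2-DMb2, H2-DMb1 and Ncl for Cebpa, at 4.71 to 6.14 points against a median of 71.3 over all loci. For Cebpb they were Copz1, Tmem50b and Dnajc8, at 4.40 to 7.09 points. For Cebpe they were Rabggta, Vps26a and Stxbp2, and for Cebpg they were Xpo6, Larp4b and Washc5. The nearest to Cebpd were Wrap53, Dnhd1 and Map2k3, and the nearest to Trib1 were Zfp760, Gm10509 and Neu4. Trib2, at or near 0 in most lists, was nearest to Masp1, Lrrc77 and Gm6040, at 0.315 to 0.364 points.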
